A study of Mus musculus with 6 samples.

Results

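Genes of the unfolded protein response and the integrated stress response were followed in cells of the mouse cortex sorted for a reporter directed to astrocytes. The libraries also held oligodendrocyte transcripts. Their 12 markers took 5.33% to 24.5% of reads, against 1.02% to 3.36% for 12 astrocyte markers, so the values are not those of astrocytes alone. The members are 30 gene symbols listed by name, and all 30 are among the 24421 genes of the deposited table. By their roles, 7 are stress regulators, 9 are genes of amino acid supply under the transcription factor Atf4, and 14 are genes of protein folding in the endoplasmic reticulum (ER). Of the 30, 28 reached a mean of at least 10 normalized counts over the 6 libraries and were tested, while Chac1 and Trib3 did not. A normalized count is the number of reads of a gene divided by a size factor of its library.

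Both groups were CD51-Flp mice that had received the virus AAV-GFAP-FSF-hM3D-mCherry after birth, so the controls carry the receptor too. CD51 is integrin alpha V, Flp is a recombinase that switches on the viral gene, the GFAP promoter directs it to astrocytes, and hM3D is a designer receptor coupled to Gq and opened to signalling by clozapine-N-oxide (CNO). CNO (libraries CNO 1, 2 and 3) or saline (saline 3, 4 and 5) was given between postnatal days 7 and 21, 2 times daily, and the cortical cells carrying mCherry were sorted at day 21. With no group given CNO without the receptor, effects of CNO by other routes cannot be told apart from those of the receptor. The labels do not say whether a library is 1 animal or a pool, so the spread behind each p-value is that between libraries and may be technical.

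The unfolded protein response senses misfolded protein in the ER through the sensors Ire1, Perk and Atf6, whose outputs Xbp1, Atf4 and cleaved Atf6 raise the transcription of chaperones, disulphide isomerases and degradation factors. The integrated stress response is the wider route in which Perk, Gcn2, Pkr or Hri phosphorylate the initiation factor eIF2, general translation drops and Atf4 is translated. Atf4 then drives amino acid synthesis, transport and tRNA charging, and Ppp1r15a (GADD34) closes the loop by guiding a phosphatase to eIF2. Astrocytes also use parts of this program in the unstressed state, since they make serine for neurons through Phgdh and Psat1 and import cystine for glutathione through Slc7a11 and Slc3a2.

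The promoters of the members differ by role in the motifs they hold. Windows of 300 bases, 250 before and 50 after each RefSeq start site on GRCm38.p6, were matched for 27 of the 30 members, with no entry for Atf6, Manf and Hyou1. The ER stress element, the site of Atf6 with NF-Y, was searched on both strands as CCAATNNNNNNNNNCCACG. It occurred in 39 of 32851 promoters (0.119%) and in those of 7 of the 12 matched ER folding genes, and in none of 9 amino acid genes or 6 regulators. Each match is given with 10 bases to either side, in the direction of the gene. Capitals mark the conserved ends of the element, which read CGTGG and ATTGG where it lies on the other strand. The Hsp90b1 window spans 2 elements.
Hspa5, chr2:34772015-34772053, plus strand: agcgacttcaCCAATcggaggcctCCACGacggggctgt
Hsp90b1, chr10:86705523-86705666, minus strand: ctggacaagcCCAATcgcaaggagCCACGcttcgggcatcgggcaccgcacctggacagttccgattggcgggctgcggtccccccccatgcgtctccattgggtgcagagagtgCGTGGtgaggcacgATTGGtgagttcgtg
Canx, chr11:50325790-50325828, minus strand: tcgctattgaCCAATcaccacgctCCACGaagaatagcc
Calr, chr8:84847065-84847103, minus strand: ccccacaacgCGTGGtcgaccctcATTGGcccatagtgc
Dnajc3, chr14:118937817-118937855, plus strand: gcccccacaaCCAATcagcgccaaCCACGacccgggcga
Pdia6, chr12:17266481-17266519, plus strand: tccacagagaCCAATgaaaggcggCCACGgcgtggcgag
Creld2, chr15:88819510-88819548, plus strand: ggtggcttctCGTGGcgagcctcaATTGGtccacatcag

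The second form of the element, ATTGGNCCACG, occurred in 12 promoters (0.0365%), Herpud1 alone among the members. The unfolded protein response element, TGACGTG, occurred in 661 promoters (2.01%), among the members in that of Hspa5, where it does not overlap the ER stress element. The core of the element shared by Atf4 and C/EBP factors, TGATGNAA, occurred in 1304 promoters (3.97%). Its member matches were Asns, Chac1 and Slc7a11 among the 9 amino acid genes, Trib3 among the regulators, and Herpud1. The windows that follow show the second ER stress element of Herpud1 and the shared core in the 3 amino acid genes, with the whole motif in capitals.
Herpud1, chr8:94386367-94386397, plus strand: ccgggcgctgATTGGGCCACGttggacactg
Asns, chr6:7693215-7693242, minus strand: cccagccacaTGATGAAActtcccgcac
Chac1, chr2:119351039-119351066, plus strand: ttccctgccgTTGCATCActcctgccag
Slc7a11, chr3:50443643-50443689, minus strand: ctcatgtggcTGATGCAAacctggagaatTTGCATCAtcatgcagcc
These matches are descriptions of letters, and binding was not measured here.

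The libraries differed in depth and in scale before any gene was compared. CNO 1 held 3908076 reads and the other 5 held 12010901 to 19224186, so that a read counted for 4.23 normalized counts in CNO 1 against 0.503 to 0.970 elsewhere. Normalized totals were 14223800 to 16592000 in the CNO group and 9588490 to 9857830 in saline. At the depth of CNO 1, 10157 ± 1726 genes would have a read in a CNO library and 13592 ± 246 in a saline library (mean ± SD, n = 3 each). The median log2 fold change of the 13028 tested genes was -0.89. Astrocyte markers took 1.02% to 3.36% of reads in CNO and 1.90% to 2.81% in saline, so the sorted cells expressed them in both groups. The astrocyte markers Aldh1l1, Slc1a2 and Aqp4 were read in every library. Itgav, which encodes CD51, ranged from 3710 to 4378 normalized counts under CNO and from 3924 to 5338 under saline. Xist was low in CNO 1, saline 3 and saline 5 (25.4 to 885 normalized counts) and high in the other 3 libraries (21466 to 35117), and the labels give no sex.

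No member passed the test between CNO and saline. By limma with Benjamini-Hochberg adjustment over 13028 genes, 2 genes were called (0.0154%), and the smallest adjusted p of a member was 0.488. At an unadjusted p under 0.05 stood 5 of the 28 tested members, against 9.53% of all genes: Psat1 on the higher side, and Creld2, Ddit3, Mthfd2 and Ppp1r15a on the lower side. On the recovered reads, edgeR called 0 genes (0%) with 3 members among the 9.33% of genes at an unadjusted p under 0.05. DESeq2 called 2.29% of the 10861 genes it gave an adjusted p, and 0 of 25 such members, with 4 members among the 12.8% at an unadjusted p under 0.05. Every comparison below therefore gives values and their spread, and no direction is a call.

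A plainer description is whether the 3 CNO values all lay on 1 side of the 3 saline values. All 3 CNO values lay above all 3 saline values for 3 members, Psat1, Dnajc3 and Canx, where 4.57% of tested genes did so. They lay below for 7 members, Ppp1r15a, Ddit3, Mthfd2, Creld2, Sdf2l1, Manf and Hyou1, where 12.5% of tested genes did so. The 3 higher members all have a mean of at least 1000 normalized counts over the 6 libraries, a level at which 16.4% of genes lay entirely higher. The 7 lower members all lie under that level, where 14.6% of genes lay entirely lower. The plot of members by library shows the abundant chaperones of both groups close together at the top and several low members at 0 in CNO.

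**Figure D1:**
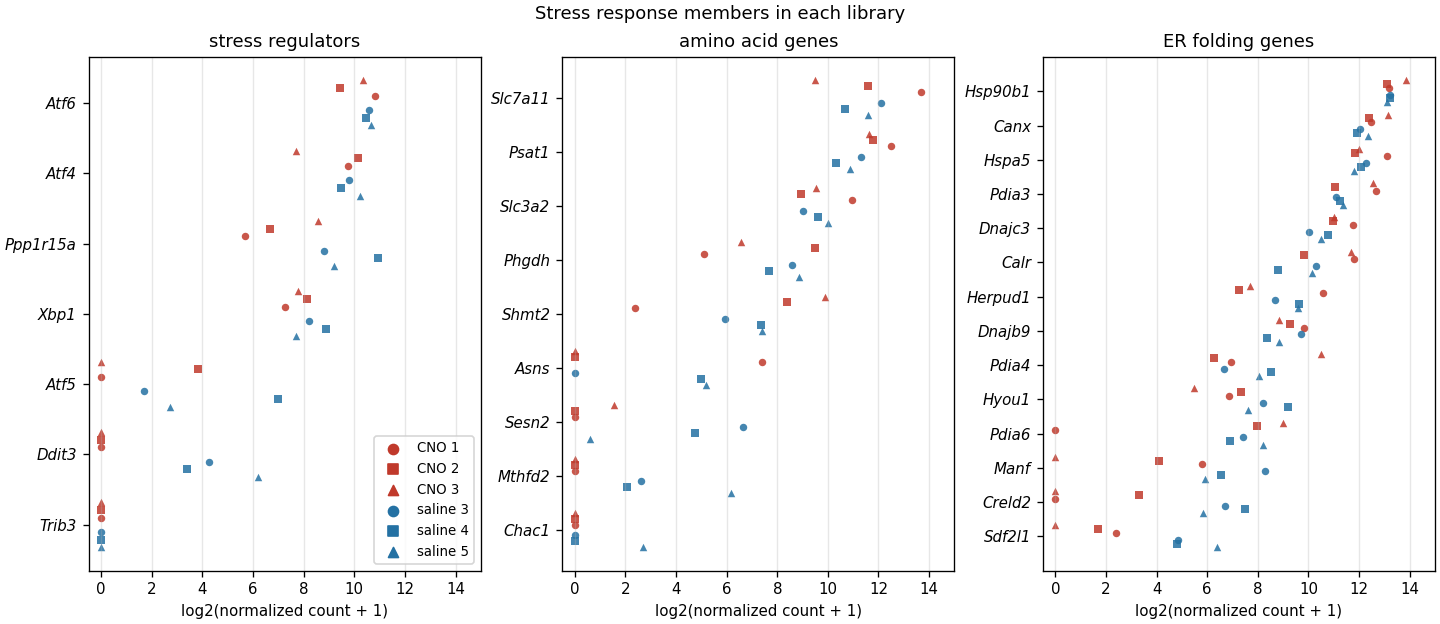
Each point is 1 library, on the axis log2(normalized count + 1), with CNO libraries in red and saline libraries in blue; marker shape tells libraries of a group apart, and points of a gene are spread vertically for legibility. Members are split by role and ordered by level. Ppp1r15a has all 3 CNO points to the left of the saline points, Ddit3 and Mthfd2 have all CNO points at 0, and Psat1 has all CNO points to the right.

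Among the regulators, Ppp1r15a (chr7:45522916-45526268, GRCm38), the stress-induced subunit that directs dephosphorylation of eIF2, lay apart between groups. Its normalized counts were 50.7, 99.9 and 383 in CNO 1, 2 and 3 and 447, 1976 and 592 in saline 3, 4 and 5. Every CNO value lay below every saline value, although CNO 3 came close to saline 3, and saline 4 was far above the other saline libraries. The means were 178 ± 179 and 1005 ± 844 (SD, n = 3 each), with a log2 fold change of -2.68 ± 1.08 (SE) and an adjusted p of 0.496 (limma). The groups also kept apart under 3 other scalings, and the log2 fold change was -2.03 without saline 4.

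Ddit3 (CHOP), the transcription factor tied to cell death in prolonged ER stress, had 0 reads in every CNO library. Saline 3, 4 and 5 held 32, 12 and 142 reads, or 18.1, 9.61 and 71.5 normalized counts. The saline mean was 33.1 ± 33.5. That is 5.57 times the floor of 3 reads per CNO library, on average 5.94 normalized counts, which covers counting error only. This ratio rests on saline 5, without which it is 2.34. Saline 4 lies below the 12.7 normalized counts that 0 reads allow in CNO 1. The adjusted p was 0.488 (limma), and a fitted fold change of a gene without reads in a group depends on the pseudocount. Of the exon bases of Ddit3, 3.97% are shared with Mars on the opposite strand, and how strands were counted is not given. Atf5, a factor translated under the same control as Atf4, was read at 0, 13.3 and 0 in CNO and at 2.27, 126 and 5.54 in saline, so most of its saline level came from saline 4. It shares 4.11% of its exon bases with Nup62 on the opposite strand. Trib3, a pseudokinase induced by Ddit3, had 0 reads in all 6 libraries.

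The factors at the head of the branches overlapped between groups. Atf4, the effector of the integrated stress response, had 849, 1140 and 206 normalized counts in CNO and 896, 715 and 1198 in saline. CNO 3 alone lay below the saline range, and without it the log2 fold change of -0.65 ± 0.80 (SE) was 0.10. Atf6, the membrane-bound sensor and factor, had 1809, 689 and 1310 in CNO against a narrow 1531, 1422 and 1616 in saline. Xbp1, whose messenger is spliced by Ire1, had 152, 280 and 217 in CNO and 296, 475 and 209 in saline, and the counts do not tell spliced from unspliced forms. The log2 fold changes of Atf6 and Xbp1 were -0.37 ± 0.59 and -0.55 ± 0.98 (SE). Atf4 is controlled mainly by translation and Atf6 by cleavage, which messenger levels do not measure. All 6 tested regulators had a log2 fold change below 0, with a median of -1.59, beside 8893 of all 13028 genes and their median of -0.89. All of them but Atf6 have a mean under 1000 normalized counts. At that level the all-gene median was -1.36, and 24.1% of genes were above 0. The regulator median was -0.82 without saline 4, -0.83 without saline 5 and -0.60 over those with a mean of at least 50.

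Among the amino acid genes, Psat1 (chr19:15904678-15947337), the aminotransferase of serine synthesis, was the member with the CNO libraries entirely higher. It had 5726, 3560 and 3171 normalized counts in CNO and 2512, 1273 and 1854 in saline. The lowest CNO value exceeded the highest saline value. The means were 4152 ± 1377 and 1880 ± 620 (SD, n = 3 each), a ratio of 2.21, with a log2 fold change of 1.15 ± 0.49 (SE) and an adjusted p of 0.512 (limma). The difference depends on the scale: in RPM, the reads of a gene scaled to the total of its library, CNO 1, 2 and 3 stood at 347, 250 and 191, saline 3, 4 and 5 at 255, 132 and 193, and the groups overlapped with a log2 fold change of 0.45.

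Its partners in the pathway did not share that pattern. Phgdh, which starts serine synthesis from glycolysis, had 33.8, 713 and 93.1 normalized counts in CNO and 385, 203 and 458 in saline, so CNO 2 lay above and the other CNO libraries below all saline values. Shmt2, which passes serine carbon into the mitochondrial folate cycle, had 4.23, 329 and 943 in CNO and 60.7, 163 and 166 in saline. Its CNO mean of 425 ± 477 exceeded the saline mean of 130.01 ± 60.1, while the log2 fold change was -0.02 ± 1.89 (SE), because CNO 1 held 1 read. Mthfd2, the next enzyme of that cycle, had 0 reads in CNO and 5.10, 3.20 and 71.5 normalized counts in saline. The saline mean of 26.6 ± 38.9 is 4.48 times the CNO floor. It rests on saline 5, without which the saline mean of 4.15 is under that floor.

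The cystine exchanger is built of Slc7a11, the transport subunit xCT, and Slc3a2, its heavy chain. Slc7a11 had 13248, 3059 and 726 normalized counts in CNO and 4377, 1620 and 3073 in saline. CNO 1 was far above and CNO 3 below every saline library, and the log2 fold change was 0.14 ± 0.87 (SE). Slc3a2 had 1965, 495 and 739 in CNO and 520, 774 and 1040 in saline, again with CNO 1 highest. For both genes the range of the CNO libraries contained the range of the saline libraries.

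The low targets of Atf4 gave mostly values near 0. Asns, which makes asparagine, had 169, 0 and 0 normalized counts in CNO and 0, 30.4 and 35.2 in saline, and the CNO value came from 40 reads of CNO 1. Sesn2, a stress-induced brake on mTORC1, had 0, 0 and 1.94 in CNO and 99.2, 25.6 and 0.503 in saline, which were 2 reads over the CNO group against 208 in saline. Chac1, which degrades glutathione, was read only in saline 5, at 5.54 normalized counts from 11 reads, and no fold is given. Of the 8 tested amino acid genes, 3 had a log2 fold change above 0 and 5 below, with a median of -0.47. Of all tested genes 31.7% were above 0, with a median of -0.89. The amino acid median turned to 0.49 by edgeR, 0.68 by DESeq2, 0.14 with a mean of at least 50 and 0.21 without saline 5. In CNO 1 a count of 0 allows a level of up to 12.7 normalized counts, the worth of 3 reads, against 1.51 to 2.91 in the other libraries.

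The ER folding genes hold the most abundant members. Per kilobase of exon in saline, Hsp90b1 (GRP94, the ER form of Hsp90) stood highest at 2304 normalized counts, followed by Hspa5 at 1013, Canx at 945 and Pdia3 at 768. Psat1 at 442 and Atf4 at 397 were the highest members outside this role. Sesn2 at 12.02, Asns at 8.00 and Mthfd2 at 7.63 were among the lowest.

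Of the chaperones that bind unfolded chains, Hspa5 (BiP, the Hsp70 of the ER and the usual gauge of ER stress) overlapped between groups. Its normalized counts were 8765, 3669 and 4124 in CNO and 4957, 4325 and 3572 in saline. CNO 1 lay above the rest, the log2 fold change was 0.26 ± 0.45 (SE), and without CNO 1 it was -0.13. Hsp90b1 had 9225, 8904 and 14737 in CNO and 9513, 9532 and 8827 in saline, with a log2 fold change of 0.20 ± 0.34 (SE). Its CNO 3 value was highest, and the other 5 libraries lay close together. Of its exon bases, 10.3% are shared with the pseudogene 1810014B01Rik on the opposite strand, which averaged 80.9 normalized counts. Hyou1, the exchange factor of Hspa5, had 114, 158 and 43.7 in CNO and 296, 589 and 193 in saline. The groups of Hyou1 did not overlap, and its log2 fold change was -1.79 ± 1.18 (SE) with an adjusted p of 0.617 (limma).

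The lectin chaperones of the calnexin cycle and their isomerase had higher CNO means at this scale. Canx, the membrane lectin, had 5688, 5342 and 9085 normalized counts in CNO and 4151, 3874 and 5277 in saline. The lowest CNO value was just above the highest saline value, and the log2 fold change was 0.57 ± 0.39 (SE, adjusted p 0.632, limma). Calr, the soluble lectin, had 3579, 905 and 3312 in CNO and 1263, 448 and 1134 in saline. Pdia3, the disulphide isomerase that works with both lectins, had 6432, 2125 and 6071 in CNO and 2186, 2444 and 2601 in saline. For Calr and Pdia3, CNO 1 and CNO 3 lay above every saline library and CNO 2 did not. Their log2 fold changes were 1.35 ± 0.71 and 0.86 ± 0.52 (SE), the adjusted p was 0.558 and 0.596 (limma), and in RPM the changes were 0.65 and 0.16, with that of Canx at -0.13.

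The other isomerases varied widely in CNO. Pdia4 had 123, 76.9 and 1457 normalized counts in CNO and 101, 366 and 260 in saline. Pdia6, which also damps the sensor Ire1, had 0, 248.6 and 508 in CNO and 167, 119 and 292 in saline. In both, CNO 3 held the highest value of the 6 libraries and another CNO library the lowest.

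Among the J-domain cochaperones of Hspa5, Dnajc3 (p58IPK, also an inhibitor of Perk) had 3431, 1981 and 2074 normalized counts in CNO and 1033, 1747 and 1459 in saline. All CNO values lay above the saline values, and the log2 fold change was 0.81 ± 0.53 (SE, limma). In RPM its groups overlapped, with a log2 fold change of 0.11. Dnajb9 (ERdj4, a restraint on Ire1) had 913, 610 and 454 in CNO and 826, 324 and 450 in saline, and overlapped. Sdf2l1, a partner of the J-domain proteins that keeps Hspa5 clients soluble, had 4.23, 2.22 and 0 in CNO and 27.8, 27.2 and 82.0 in saline, from 4 reads over CNO and 246 over saline.

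Creld2, Manf and Herpud1 belong to the stress-induced proteins around the chaperones. Creld2 (chr15:88819646-88826683), an isomerase-like target of Atf6, had 0, 8.88 and 0 normalized counts in CNO and 104, 178 and 56.4 in saline. Its 12 reads in CNO all came from CNO 2, every saline library held at least 112 reads, and the adjusted p was 0.488 (limma). The fitted log2 fold change was -5.58 with a pseudocount of 1 and -3.42 with a pseudocount of 8. Manf, a neurotrophic factor kept in the ER by Hspa5, had 54.9, 16.3 and 0 in CNO and 315, 92.8 and 59.4 in saline, so CNO 1 came close to saline 5. Of the exon bases of Manf, 4.71% are shared with an antisense transcript, 4930524O07Rik, and 4.14% with Dcaf1 on the opposite strand. Rbm15b, on the same strand as Manf, shares 0.397% and averaged 185.5 normalized counts. Herpud1, an adaptor of ER-associated degradation, had 1504, 152 and 207 in CNO and 408, 800 and 774 in saline, with CNO 1 highest and the other CNO libraries lowest.

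Over the 14 ER folding genes, 8 log2 fold changes were above 0 and 6 below, with a median of 0.19. Of all tested genes 31.7% were above 0, with a median of -0.89. The share was 68.7% at a mean of at least 1000 and 24.1% under it. The ER folding median turned to -0.51 with total reads, -0.42 with quantile scaling, -0.22 without CNO 3 and -0.07 without saline 3. At the deposited size factors, the 7 genes with an ER stress element in the printed windows did not all fall on 1 side. Dnajc3 and Canx lay entirely higher, Creld2 entirely lower, and Hspa5, Hsp90b1, Calr and Pdia6 overlapped. Of all tested genes 4.57% lay entirely higher (16.4% of those with a mean of at least 1000) and 12.5% entirely lower. With total reads Creld2 and Hsp90b1 lay entirely lower and no member higher, and with quantile scaling Creld2 alone of the 7 lay apart. The 4 amino acid and folding genes printed with the other motifs, Asns, Chac1, Slc7a11 and Herpud1, all overlapped or were untested.

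**Figure D2:**
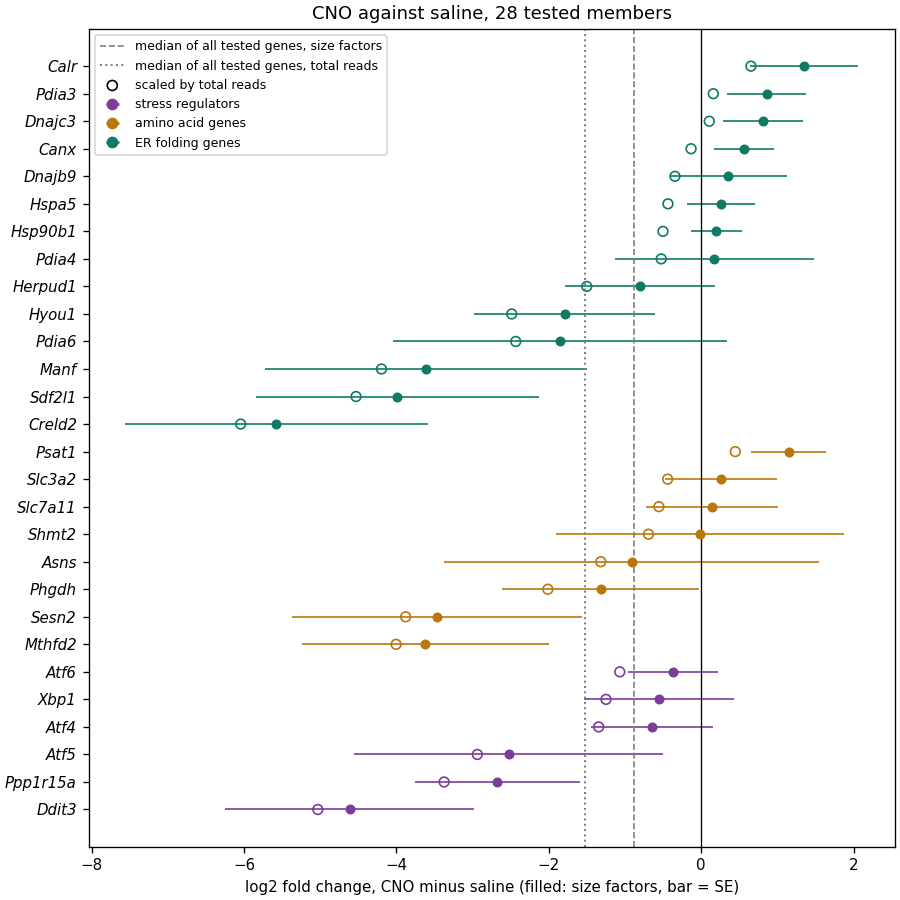
Log2 fold change of each tested member, CNO minus saline, with filled points for the deposited size factors and bars of ± 1 SE, and open points for scaling to total reads. The vertical lines mark the medians of all tested genes, -0.89 and -1.53. Every filled point for a regulator lies below 0, and the open points of Hspa5, Hsp90b1 and Canx fall below 0 where their filled points lie above.

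Direction and level went together among the members, as they did in all genes. Of the 9 members with a mean of at least 1000 normalized counts, 8 had a log2 fold change above 0, with a median of 0.57, and Atf6 was the exception. Among all 2239 genes at that level, 68.7% were above 0 and the median was 0.35. Of the 19 members below that level, 3 were above 0, with a median of -1.79, while 24.1% of all 10789 such genes were above 0 and their median was -1.36.

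**Figure D3:**
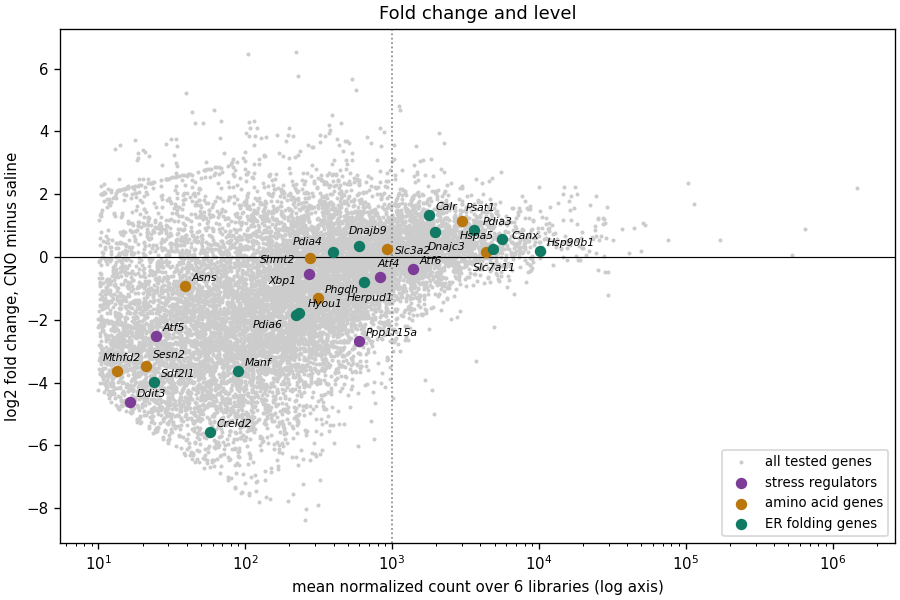
Log2 fold change, CNO minus saline, against the mean normalized count over 6 libraries (log axis), with all 13028 tested genes in grey and the 28 tested members coloured by role. The dotted line marks 1000 normalized counts. Members to its right lie near or above 0, and the members furthest below 0 lie to its left, within the grey cloud of other genes.

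Values of 0 reads were also unevenly spread. Among the tested members, 17 of 84 CNO values were 0 (20.2%) and 1 of 84 saline values (1.19%), beside 21.4% and 3.63% in all tested genes. CNO 1, the shallowest library, held the highest value for 11 of the 28 members (39.3%), where it did so for 20.1% of all genes. Among abundant members it was 7 of 9, namely Psat1, Slc7a11, Hspa5, Dnajc3, Calr, Pdia3 and Atf6, beside 36.7% of abundant genes. The SD on the log2 scale was wider among CNO than saline libraries for 3 of 6 tested regulators, 5 of 8 amino acid genes and 13 of 14 ER folding genes, beside 80.6% of all tested genes. Its median over the ER folding genes was 1.03 in CNO and 0.67 in saline, and over all genes 2.15 and 0.81. The part of depth in these differences was not tested.

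The scale decides which members lie apart. With TMM factors 2 members lay entirely higher and 7 lower, beside 3.78% and 13.4% of all tested genes. With scaling to total reads it was 0 higher and 10 lower, beside 1.13% and 21.3%, and with quantile normalization 0 higher and 3 lower, beside 6.39% and 7.31%. The all-gene median log2 fold change was -1.004, -1.53 and -0.08 in turn. Ppp1r15a and Creld2 lay entirely lower under all 4 scalings. Total-read scaling added Hsp90b1, Atf6 and Xbp1 on the lower side, and no member lay higher under total-read or quantile scaling.

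Summed by role, the members can be set on the scale of total reads, on which 21.3% of all genes lay entirely lower in CNO and the all-gene median was -1.53. The 7 regulators took 0.0173%, 0.0156% and 0.0128% of reads in CNO 1, 2 and 3 and 0.0324%, 0.0491% and 0.0385% in saline 3, 4 and 5, with no overlap between groups. The 9 amino acid genes took 0.128%, 0.0573% and 0.0342% in CNO and 0.0807%, 0.0426% and 0.0699% in saline, so CNO 1 was highest and CNO 3 lowest. The 14 ER folding genes took 0.241%, 0.170% and 0.254% in CNO and a nearly constant 0.257%, 0.259% and 0.261% in saline, so these groups did not overlap either.

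Transcripts of myelinating cells also took different shares of reads in the 2 groups. The 12 oligodendrocyte markers took 11.1% to 24.5% of reads in CNO and 5.33% to 7.87% in saline. At the deposited size factors 7 of the 12 lay entirely higher in CNO. Of all tested genes 4.57% did so, and 16.4% of those with a mean of at least 1000. Mbp averaged 2420700 normalized counts under CNO and 517551 under saline, while Mag and Aspa had 0 reads in a CNO library. Of the reads outside these 12 genes, the regulators took 0.0157% to 0.0207% in CNO and 0.0342% to 0.0523% in saline, still without overlap. The ER folding share outside them was 0.225% to 0.312% in CNO and 0.272% to 0.283% in saline, which overlapped. Microglia and macrophage markers took 0.635% to 1.35% in CNO and 1.12% to 1.41% in saline, and neuron markers 0.0117% to 0.0229% and 0.0157% to 0.0302%. In sorted bulk samples, fewer cells of a type and less RNA per cell cannot be told apart, and the part of these cells in the values of the members was not tested beyond these shares.

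**Figure D4:**
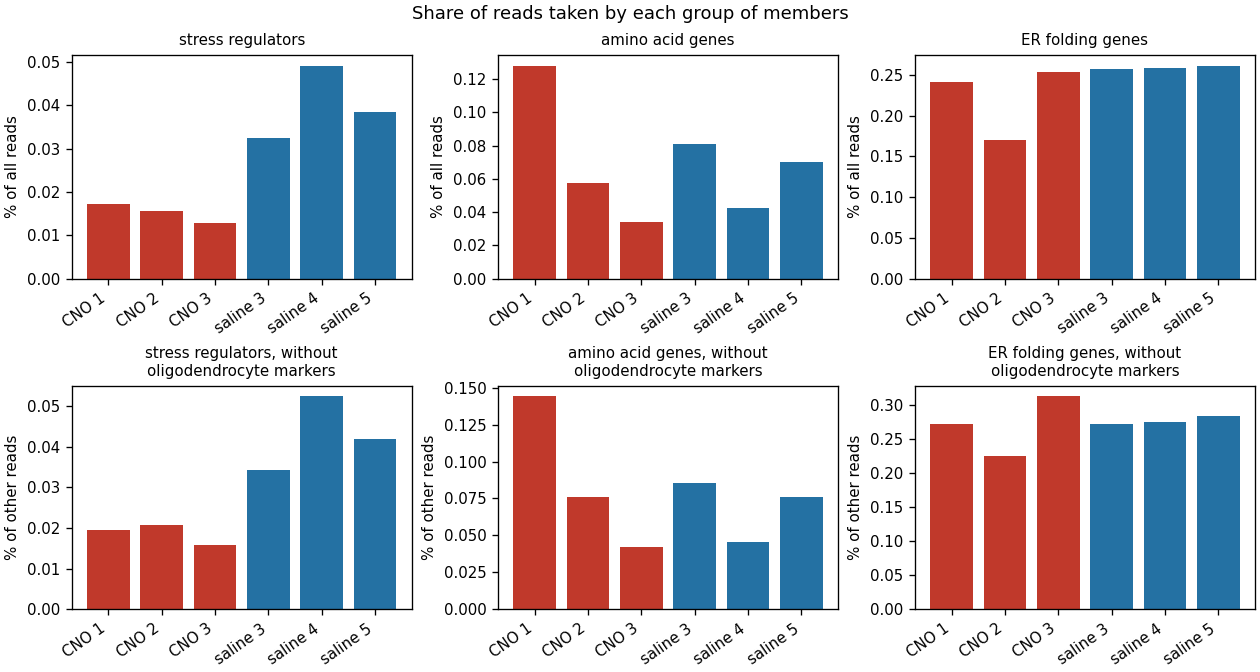
Share of reads per library (percent, axes from 0) taken by each role, CNO in red and saline in blue, of all reads in the top row and of reads outside 12 oligodendrocyte markers in the bottom row. The regulators take less in every CNO library in both rows, while for ER folding genes CNO 2 is lowest in both rows and CNO 3 passes the saline libraries only in the bottom row.

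The wider pathway was read from 7 lists of other genes, and limma called 0 genes in each, beside 0.0154% of all tested genes. For every list that follows, the all-gene share at an unadjusted p under 0.05 is 9.53%, with 944 genes lower and 297 higher. The all-gene median log2 fold change is -0.89. Of the 18 sensors and initiation factors, 3 stood lower at an unadjusted p under 0.05 (16.7%) and none higher. Their median log2 fold change of -0.62 lay above that of all tested genes. Eif2s2, the beta subunit of eIF2, averaged 2155 ± 818 normalized counts in CNO and 1110 ± 139 in saline (SD, n = 3 each). Eif2b1, a subunit of the exchange factor that phosphorylated eIF2 blocks, averaged 14.8 ± 25.6 and 159 ± 104, and Eif2b2, another subunit of it, 5.84 ± 7.69 and 105 ± 26.4. In CNO 1 both Eif2b genes had 0 reads, and Eif2b1 also had 0 in CNO 3. Eif2s3x, the X-linked gamma subunit, had a log2 fold change of 0.95 ± 0.62 (SE), and its libraries differ in Xist.

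Other Atf4-type amino acid genes had the lowest median of the 7 lists, -2.10 over 18 tested of 19. The median was -0.89 over all tested genes and -1.36 over those with a mean under 1000. Of the 18, 2 stood lower at an unadjusted p under 0.05 (11.1%), beside 9.53% of all tested genes in both directions. Over the 19 genes, 19 of 57 CNO values and 6 of 57 saline values were 0 reads. The part of these values in the median was not tested. Slc7a5 (LAT1), the light chain that exchanges large neutral amino acids, had 63.4, 25.9 and 0.970 normalized counts in CNO and 468, 215 and 339.7 in saline. Its groups were far apart, with a log2 fold change of -4.43 ± 1.78 (SE) and an adjusted p of 0.496 (limma). Mthfd1l, a mitochondrial folate enzyme, had 2 reads in CNO, both in CNO 2, and averaged 24.0 ± 22.7 in saline. Eif4ebp1 and Cbs were the genes of this list above 0, at 1.55 ± 1.92 and 0.23 ± 0.68 (log2 fold change ± SE). The 13 aminoacyl-tRNA synthetases had a median of -0.86, with 0 at an unadjusted p under 0.05. By smallest p, Cars stood at 1.89 ± 1.86 and Mars at 0.77 ± 0.72 on the higher side, and Iars stood at -2.55 ± 1.30 and Tars at -2.02 ± 1.22 on the lower side.

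The other ER lists had medians closer to 0. Other chaperones and oxidoreductases had a median of -0.27 over 20 tested of 21, with 0 at an unadjusted p under 0.05. Dnajc1, a membrane J-domain protein, averaged 2437 ± 2551 normalized counts in CNO and 655 ± 50.9 in saline with groups apart, and Cnpy2 521 ± 353 and 144 ± 63.5. Ppib, a prolyl isomerase, averaged 6.66 ± 11.5 and 75.0 ± 76.9, and Uggt1, the folding sensor of the calnexin cycle, 659 ± 920 and 680 ± 252. ER-associated degradation had a median of -0.28 over 19 tested of 20, with 1 lower at an unadjusted p under 0.05. That gene was Edem1, a mannosidase-like lectin, with 76.1, 168 and 1305 in CNO and 959, 1569 and 1502 in saline. Derl2, a channel component, stood at -2.88 ± 1.57, and Ubxn4 and the ligase Syvn1 at 0.74 ± 0.49 and 0.61 ± 1.24 (log2 fold change ± SE).

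The translocon and signal peptidase list had a median of -0.02 over 21 genes. Ssr1, a subunit of the translocon-associated complex, had 3085, 2878 and 1511 normalized counts in CNO and 918, 894 and 707 in saline. It was entirely higher, with a log2 fold change of 1.51 ± 0.56 (SE) and an adjusted p of 0.489 (limma), and was the 1 gene of its list at an unadjusted p under 0.05. Sec61a1, the pore, was also entirely higher at 0.93 ± 0.72, while Rpn1 of the glycosylating complex was entirely lower at -3.50 ± 2.01 and Ssr2 stood at -3.71 ± 2.26 (log2 fold change ± SE). The other stress regulators had a median of -0.11 over 15 tested of 17. Nfe2l2, the antioxidant factor, had 4158, 2338 and 5965 in CNO and 5906, 6442 and 7370 in saline, and Creb3l2 stood at -5.15 ± 2.23 with 1604 of its saline counts in saline 5. Cebpg, a dimer partner of Atf4, and Sqstm1, an autophagy receptor, stood at 0.75 ± 0.59 and 0.77 ± 0.85 (log2 fold change ± SE).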

How the data were processed

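Members, roles and other gene lists were chosen with earlier results of these data known, and the rule for naming other genes took up to 2 per list and direction with the smallest unadjusted p, plus fixed cell type markers. The deposited signal is read counts per gene that had been divided by 1 size factor per library. Of these values, 100% were whole multiples of 1 step (tolerance 1e-06 reads), so reads were recovered, and 0 columns lacked a library. STAR 2.5.0a, DESeq2 1.20.0, Trimmomatic 0.4, MultiQC 0.9, FastQC 0.10.1 and the build mm10 are named in the submitters' processing notes. How reads were assigned to genes and strands is not given in these sources, so overlapping genes may share reads.

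Genes with a mean of at least 10 were tested with limma 3.58.1 in R 4.3.3 on log2(value + 1), 2-sided with a variance trend, with Benjamini-Hochberg adjustment over all 13028 genes at 0.05. Fold changes are on that scale. The pseudocount pulls those of low genes toward 0, but a mean of logs that includes libraries at 0 reads can pass the ratio of means, as for Manf (-3.62, against -2.95 by edgeR), or take the opposite sign, which happened for Pdia6 (-1.85, ratio 1.31). On the recovered reads edgeR 4.0.16 called 0 genes and DESeq2 1.42.0 called 249. Other alternatives changed the pseudocount, filter, trend and scaling or left out a library. The floor for a count of 0 is 3 reads and covers counting error only, since reads carry no molecular identifiers. The limma, edgeR and DESeq2 fits were tested on simulated counts with known changes, no difference in cell makeup and the same dispersion for every gene. Floors, overlap counts and list medians were not part of that test. Motif searches, exon lengths (GENCODE, GRCm38) and positions are descriptions, and no protein sequence was used here. Figures used matplotlib 3.10.9.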

Additional observations from a re-analysis of the deposited data

How the results depend on the processing

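No member and no other pathway gene was called under any of the 17 alternatives, and 420 of 457 refits of single members kept their direction. Over all genes limma called 2, edgeR 0 and DESeq2 249, and limma called 0 with a mean of at least 50, a read in every library, total reads, quantile scaling, no variance trend, or without any library but CNO 1, without which it called 2. Scaling to total reads, and the counts of separated members under other scalings and without a library, were added after the data were seen. No paired analysis was possible because the labels give no pairing of CNO and saline libraries. The regulator median of -1.59 was -0.95 with a pseudocount of 8, -0.60 with a mean of at least 50 or a read in every library, -2.14 with total reads, -0.89 with quantile scaling, and -1.88 to -0.82 with a library left out. The amino acid median of -0.47 was 0.035 with a pseudocount of 8, -0.90 without the filter, 0.14 with a mean of at least 50 or a read in every library, -1.004 with total reads, 0.49 by edgeR, 0.68 by DESeq2, and -0.63 to 0.21 with a library left out, the last value without saline 5. The ER folding median of 0.19 was -0.51 with total reads, -0.42 with quantile scaling, and -0.22 (without CNO 3) to 0.35 (without CNO 2) with a library left out. Members entirely higher numbered 0 with total reads or quantile scaling and 3 to 5 with a library left out, 5 without CNO 2, and members entirely lower numbered 3 with quantile scaling and 7 to 9 with a library left out. Over all genes the shares with a library left out were 5.86% to 10.9% higher and 16.1% to 27.3% lower, and with total reads and quantile scaling 1.13% and 6.39% were higher and 21.3% and 7.31% lower.

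Of single members, 12 of 28 turned direction somewhere, as log2 fold changes. With total reads these were Slc7a11 -0.56, Slc3a2 -0.44, Hspa5 -0.44, Hsp90b1 -0.50, Dnajb9 -0.34, Canx -0.13 and Pdia4 -0.52. With quantile scaling they were Asns 1.23, Shmt2 1.80, Slc7a11 -0.47, Slc3a2 -0.14, Hspa5 -0.45, Hsp90b1 -0.61 and Canx -0.084. By edgeR and DESeq2 in turn, Asns gave 1.10 and 1.36, Shmt2 1.65 and 1.71, and Pdia6 0.33 and 0.39, and Shmt2 gave 0.31 with a pseudocount of 8. With a library left out, Asns ran from -3.38 to 0.32, Shmt2 from -1.52 to 2.23, Slc7a11 from -0.91 to 1.19, Slc3a2 from -0.31 to 0.69, Hspa5 from -0.13 to 0.50, Hsp90b1 from -0.035 to 0.33, Pdia4 from -1.13 to 0.99, Pdia6 from -3.52 to 0.98, Atf4 from -1.13 to 0.10 and Atf6 from -0.68 to 0.017. Where an arm had 2 libraries, the fit pooled their spread with that of the other group. The causes were not tested. Depth limits members under about 12.7 normalized counts in CNO 1, the level of 3 reads there.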
